A study of Homo sapiens with 24 samples.

Results

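Kinesins are motor proteins that turn ATP hydrolysis into movement along microtubules. Mitotic kinesins build the spindle, move chromosomes and set up the cleavage site, and many of their genes are transcribed mainly in the G2 and M phases of the cell cycle. Transport kinesins carry vesicles, organelles and protein complexes through the cytoplasm of cycling and resting cells alike. The kinesin genes were taken from the deposited table by their symbols, as KIF followed by a number and at most 1 of the letters A to C, or as KIFC1 to KIFC3. This gave 41 of 36481 genes. By known function 13 were placed with the mitotic kinesins, 15 with the transport kinesins and 13 with others (regulatory, ciliary, poorly studied or mixed in function). KIF2B, another mitotic kinesin, was not analysed here.

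RNA was sequenced from Hs578T and SKBR7, established cell lines labelled as triple-negative breast cancer. Each line was treated for 6 h with lapatinib (3.16 µM) and PHA-767491 (1 µM) together, here called co-treatment, with lapatinib alone at that dose, with PHA-767491 alone at that dose, or with the vehicle DMSO (0.1%). Lapatinib inhibits the receptor kinases EGFR and HER2, and PHA-767491 inhibits the kinases cdc7 and CDK9. There were 3 libraries in each of the 8 groups, 24 in all, from wells treated in triplicate, so that p-values measure the spread between these libraries, which may be technical. Values are log2 normalised read counts as deposited. They are not scaled to gene length, so that levels of different genes are compared below only after division by mRNA length, and a gene can have no value in a library, here called not listed.

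Libraries listed between 9967 and 23320 genes. The mesenchymal marker VIM lay at 10.3 to 12.2 in Hs578T and at 8.56 to 9.53 in SKBR7 libraries. Of the receptor genes, ESR1 was at most 0.83 and PGR was listed in 4 of 24 libraries. ERBB2, which encodes HER2, was listed in every library, at 4.17 to 6.97. Of 795 genes listed mainly in SKBR7, 714 were listed in Hs578T PHA-767491 replicate 3 and 451 in Hs578T DMSO replicate 2, against 3 to 103 in the other Hs578T libraries. These libraries, together with Hs578T DMSO replicate 1 and Hs578T PHA-767491 replicate 1, SKBR7 lapatinib replicate 2 and SKBR7 co-treatment replicate 1, are 6 libraries in doubt, because they stand apart from their groups or list few genes. Results that rest on them are given with and without them. The second kind of value comes from the other 18 libraries, ranked anew over 12200 genes.

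Of the 41 kinesins, 21 were listed in all 24 libraries (10 mitotic, 8 transport and 3 other kinesins), 10 in 23 libraries and 10 in fewer. Of the 10 listed in 23 libraries, 9 were missing only from Hs578T DMSO replicate 1. KIF19 was listed in 2 libraries and KIF25 in 5, and neither was tested in co-treatment against lapatinib in either line. On the scale per kilobase of mRNA, in Hs578T cells on lapatinib, the highest mitotic kinesins were KIF2C at 6.90 and KIF20A at 6.38, and the lowest but for KIF4B was KIF15 at 2.89. Among transport kinesins KIF5B, the ubiquitous heavy chain of conventional kinesin, was highest at 6.15 on the same scale, followed by KIF1C at 5.24 and KIFC3 at 5.19. KIF4B, at -1.44, is an intronless near copy of KIF4A, so that reads of the pair may have been split and its values are uncertain.

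In Hs578T, the mitotic kinesins were lower in co-treatment than in lapatinib alone. Of 13 tested, 9 were lower and 0 higher (adjusted p at most 0.05, limma over all genes in the 6 libraries of both groups), in a comparison where 11% of 21814 genes were lower and 18.3% higher. Their median log2 difference was -0.88, against 0.18 over all genes. In bulk RNA a smaller number of cells in G2 and mitosis and less RNA per such cell cannot be told apart.

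The motors that assemble the spindle and keep its poles apart were among the lowest. KIF11 (ENSG00000138160.5, chromosome 10, 92593286 to 92655395, GRCh38), the tetrameric motor that slides antiparallel microtubules apart, had log2 values of 6.08, 5.93 and 5.97 in co-treatment, against 7.73, 7.89 and 8.0 in lapatinib. The co-treated libraries lay more than 1 log2 unit below every lapatinib library, and the difference was -1.88 (standard error 0.11, limma adjusted p = 6.93e-62). KIF15 (chromosome 3, 44761717 to 44873376), another plus-end motor that can keep poles apart when KIF11 is blocked, had 3.89, 3.91 and 3.98 in co-treatment, against 5.08, 5.07 and 5.27 in lapatinib, a difference of -1.21 (standard error 0.19, limma adjusted p = 6.06e-09). KIFC1 (chromosome 6, 33391536 to 33409924), a minus-end motor that focuses poles and clusters extra centrosomes, had 5.31, 5.44 and 5.17 in co-treatment, against 6.72, 6.82 and 6.82 in lapatinib. Its difference was -1.48 (standard error 0.13, limma adjusted p = 1.17e-27), and the groups of KIF15 and of KIFC1 did not overlap.

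The motors of the spindle midzone and of cytokinesis were lower as well. KIF20B (chromosome 10, 89701610 to 89774939), which acts late in cytokinesis, had 4.38, 4.36 and 4.43 in co-treatment, against 6.17, 6.43 and 6.46 in lapatinib, the largest fall among the kinesins called in this line at -1.96 (standard error 0.15, limma adjusted p = 1.43e-35). KIF14 (chromosome 1, 200551497 to 200620734), a midbody motor that recruits citron kinase, had 4.67, 4.26 and 4.27 in co-treatment, against 5.95, 6.02 and 6.39 in lapatinib, a difference of -1.72 (standard error 0.16, limma adjusted p = 5.79e-26). Both genes were separated by more than 1 log2 unit between the groups. KIF20A (chromosome 5, 138178719 to 138187715), which brings the chromosomal passenger complex to the midzone, was tight in both groups at 7.13, 7.14 and 7.13 in co-treatment, against 8.02, 7.99 and 8.02 in lapatinib (difference -0.88, standard error 0.10, limma adjusted p = 2.93e-16). KIF23 (chromosome 15, 69414246 to 69448427), the motor of centralspindlin, had 6.86, 6.95 and 6.93 in co-treatment, against 7.40, 7.46 and 7.56 in lapatinib (difference -0.56, standard error 0.11, limma adjusted p = 1.81e-06). The groups of both genes did not overlap, and KIF23 changed least of the 4 cytokinesis motors.

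Among motors that act on chromosomes and on microtubule ends the changes were uneven. KIF2C (chromosome 1, 44739818 to 44767767), a kinesin that depolymerises microtubules at centromeres and corrects faulty attachments, had 7.20, 7.36 and 7.22 in co-treatment, against 8.50, 8.29 and 8.45 in lapatinib (difference -1.15, standard error 0.10, limma adjusted p = 1.23e-29). KIF18A (chromosome 11, 28020620 to 28108308), which damps the oscillation of chromosomes at the spindle equator, had 5.53, 5.59 and 5.52 in co-treatment, against 5.93, 5.92 and 5.97 in lapatinib (difference -0.39, standard error 0.14, limma adjusted p = 0.0186). Without co-treatment replicate 1, 2 or 3 this last call was lost (adjusted p = 0.106, 0.0512 and 0.0655). The remaining members did not pass. They were KIF18B, which limits the growth of astral microtubules, at -0.34 (limma adjusted p = 0.103), the chromokinesin KIF4A at -0.25 (limma adjusted p = 0.0523), the chromokinesin KIF22 at -0.09 (limma adjusted p = 0.655) and KIF4B at 0.31 (limma adjusted p = 0.782).

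**Figure D1:**
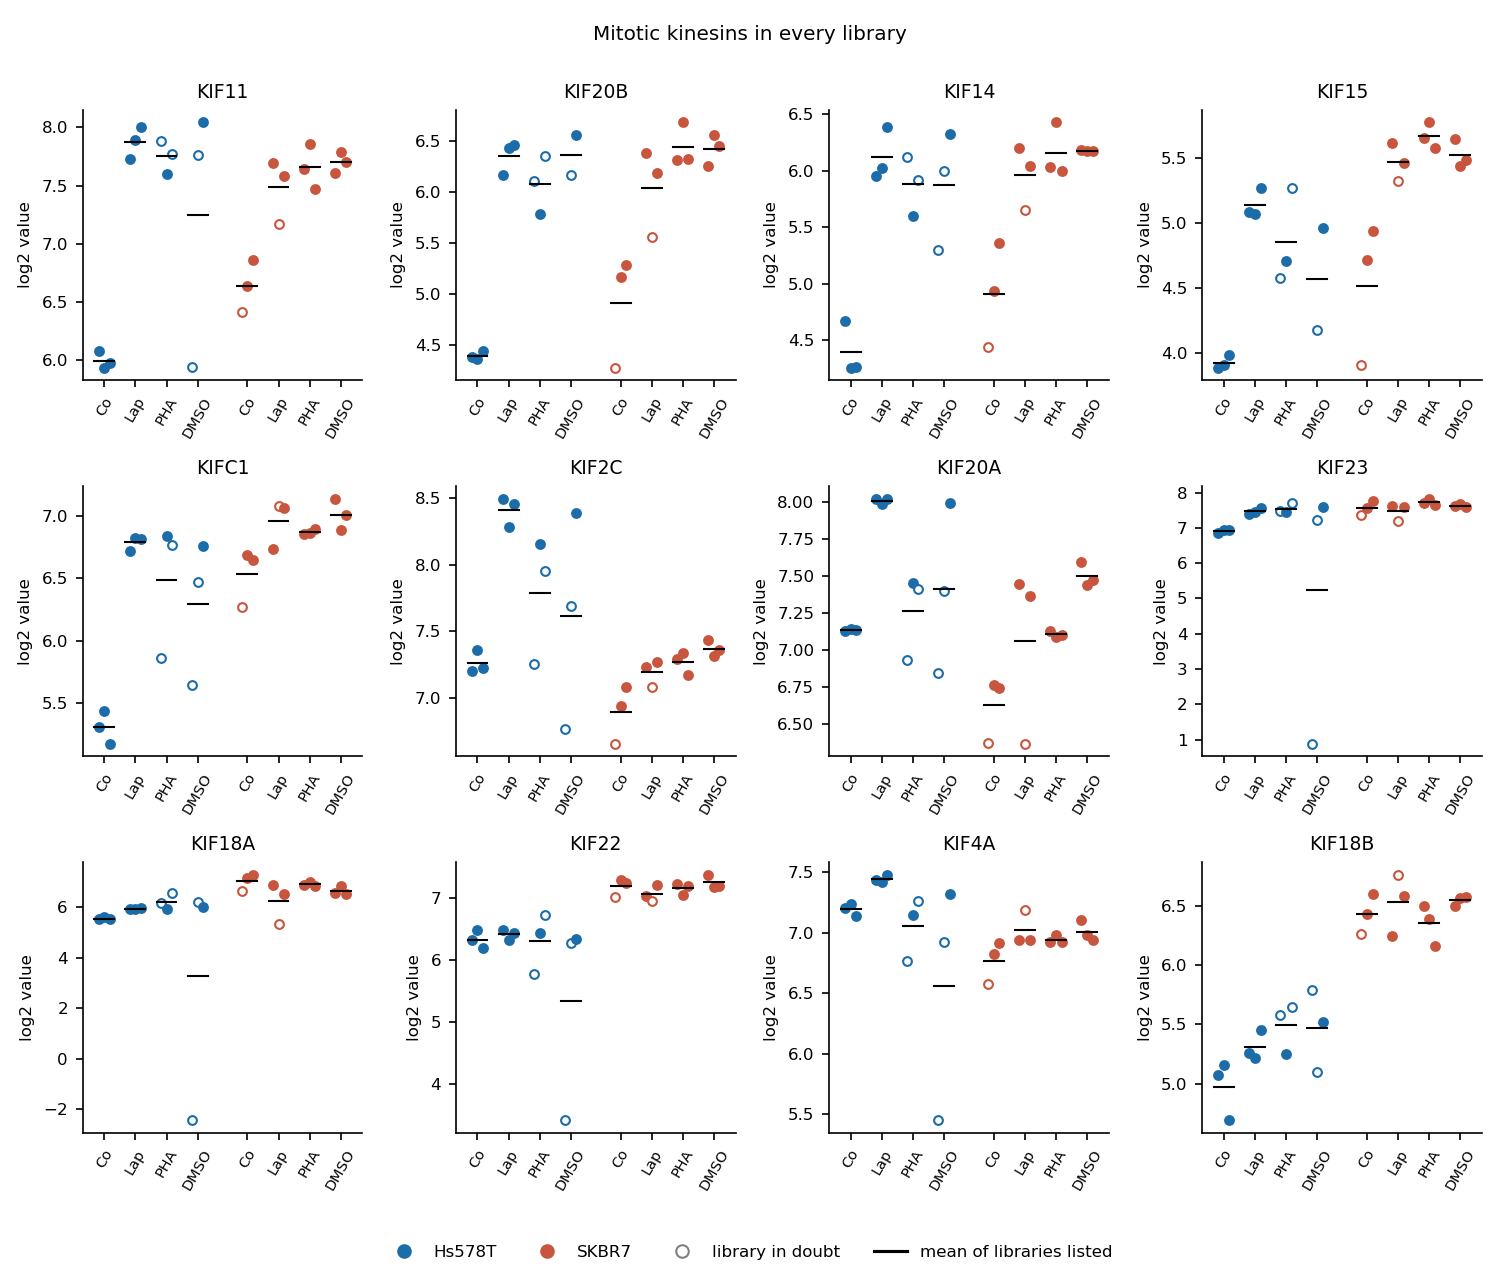
Log2 value (vertical axes, a scale of its own in each panel) of 12 mitotic kinesins in each library, by group (Co, co-treatment; Lap, lapatinib; PHA, PHA-767491), with Hs578T in blue and SKBR7 in red. Open points are the 6 libraries in doubt and black bars are group means over the libraries that list the gene; KIF11, KIF20B and KIF14 lie lower in co-treatment than in lapatinib in both lines, while KIF22 overlaps.

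These small p-values depend on how the spread was estimated. With a variance trend the test of the 6 libraries took the spread of each gene wholly from genes of like level (prior degrees of freedom infinite), and without that trend 8 kinesins passed, all lower, namely KIF11 and KIF20B (adjusted p = 0.0254 each), KIFC1, KIF14, KIF15, KIF2C, KIF20A and KIF5B (adjusted p between 0.0274 and 0.0348), while the other 8 calls, KIFC2 among them, were lost. With all 12 Hs578T libraries in the fit, 4 of which are in doubt, 0 kinesins passed.

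In SKBR7, with all 12 libraries, KIF11 was the 1 kinesin called lower in co-treatment against each of the other groups. Its values were 6.42, 6.64 and 6.86 in co-treatment, against 7.70, 7.17 and 7.59 in lapatinib, 7.64, 7.86 and 7.47 in PHA-767491 and 7.61, 7.79 and 7.70 in DMSO. Every co-treated library lay below every other SKBR7 library. The differences were -0.85 against lapatinib (standard error 0.19, limma adjusted p = 0.0428), -1.02 against PHA-767491 (adjusted p = 0.0175) and -1.06 against DMSO (adjusted p = 0.00703), from fits of all 12 libraries of the line. It was the 1 kinesin of 39 called against lapatinib, where 0.57% of 21932 genes were lower and 0.164% higher, and its call was lost without any 1 library other than co-treatment replicate 3 and lapatinib replicate 2. The call against lapatinib was also lost with the replicate number as a block (limma adjusted p = 0.0561) and from only the 6 libraries compared (limma adjusted p = 0.474), whereas those against PHA-767491 and DMSO passed in both fits.

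The cytokinesis motors KIF20B and KIF14 and conventional kinesin were also lower against 1 or more groups of SKBR7. KIF20B had 4.27, 5.17 and 5.28 in co-treatment, against 6.38, 5.55 and 6.18 in lapatinib, 6.31, 6.68 and 6.32 in PHA-767491 and 6.25, 6.55 and 6.45 in DMSO. Its difference was -1.53 against PHA-767491 (standard error 0.30, limma adjusted p = 0.0211) and -1.51 against DMSO (standard error 0.30, limma adjusted p = 0.0125), and at -1.13 it did not pass against lapatinib (adjusted p = 0.0847). KIF14 had 4.44, 4.94 and 5.37 in co-treatment, against 6.21, 5.65 and 6.04 in lapatinib, 6.04, 6.43 and 6.00 in PHA-767491 and 6.19, 6.18 and 6.18 in DMSO, and was lower against DMSO (-1.27, standard error 0.28, limma adjusted p = 0.0260). For both genes no co-treated library reached any library of the other groups. KIF5B had 8.07, 8.17 and 8.44 in co-treatment, against 8.74, 8.46 and 8.65 in lapatinib and 8.73, 8.98 and 8.85 in DMSO. It was lower against DMSO (-0.63, standard error 0.15, limma adjusted p = 0.0389).

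In all, 2 of 40 kinesins were lower in SKBR7 co-treatment against PHA-767491, where 0.413% of 22253 genes were lower and 0.018% higher, and 4 of 40 against DMSO, where 1.44% of 22521 genes were lower and 0.0666% higher. The median difference of the mitotic kinesins was -0.30, -0.34 and -0.48 against lapatinib, PHA-767491 and DMSO, beside -0.08, -0.28 and -0.46 over all genes. With all 12 libraries, the mitotic kinesins as a group thus lay close to the median gene against DMSO, and KIF11, KIF20B and KIF14 lay apart from it. Ranked anew without the 6 libraries in doubt, the mitotic medians were -0.24, -0.21 and -0.29 in the same order. Those over all 12200 genes were then 0.037, 0.036 and 0.035. Without SKBR7 lapatinib replicate 2, which is in doubt, the counts were 5, 6 and 8, all lower, and without co-treatment replicate 3 they were 4, 4 and 9. They were 0, 0 and 2 without co-treatment replicate 1 or replicate 2. Without DMSO replicate 2 or 3 the count against DMSO was 0, without PHA-767491 replicate 1, 2 or 3 that against PHA-767491 was 0, and without the variance trend all were 0. For these alternative fits the shares over all genes are not given here.

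With all libraries, other mitotic kinesins overlapped or did not pass in SKBR7. KIF15 had 3.91, 4.71 and 4.94 in co-treatment, against 5.61, 5.32 and 5.46 in lapatinib. Its co-treated libraries lay below every other SKBR7 library, but it did not pass against any group (-1.15 against PHA-767491, limma adjusted p = 0.121). KIF23 had 7.38, 7.56 and 7.78 in SKBR7 co-treatment, against 7.61, 7.20 and 7.59 in lapatinib, and the groups overlapped. KIF22, a chromokinesin that was not called in Hs578T either, had a difference of 0.12. KIF2C, at 6.65, 6.94 and 7.08 in co-treatment, against 7.23, 7.08 and 7.27 in lapatinib, touched at the edge and did not pass (-0.30, limma adjusted p = 0.543). KIFC1 had 6.27, 6.69 and 6.65, against 6.74, 7.08 and 7.06, and did not pass (-0.42, limma adjusted p = 0.422). KIF20A had 6.37, 6.76 and 6.75 in co-treatment, against 7.45, 6.36 and 7.36 in lapatinib, and its overlap came from lapatinib replicate 2, which is in doubt. Over the 13 mitotic kinesins Spearman's correlation between the differences of Hs578T and of SKBR7 was 0.813, given as a description over genes that share the normalisation of 1 table. Without the 6 libraries in doubt, ranked anew, KIF15 (-0.70), KIF20A (-0.65) and KIF2C (-0.24) were lower in SKBR7 co-treatment than in lapatinib. Their limma adjusted p-values were 7.79e-04, 1.90e-04 and 0.0315, and 19.8% of 12200 genes were lower there. KIFC1 (-0.24, limma adjusted p = 0.0862), KIF23 (0.07) and KIF22 (0.14) did not pass.

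With all 12 libraries, neither drug alone moved a kinesin of SKBR7 past the test. Against DMSO, 0 of 40 kinesins passed in PHA-767491 and 0 of 39 in lapatinib by limma (0 and 0 at an unadjusted p under 0.05), where 0% of 23206 and 0% of 22875 genes passed (484 and 525 at an unadjusted p under 0.05). The 3 PHA-767491 libraries of KIF20A, at 7.13, 7.09 and 7.10, lay below those of DMSO at 7.59, 7.44 and 7.47 without passing. In the 18 libraries ranked anew this difference passed (-0.34, limma adjusted p = 0.0368). In Hs578T, fits of all 12 libraries called 0 kinesins in co-treatment against PHA-767491 or DMSO and in PHA-767491 or lapatinib against DMSO. Of 23003, 21228, 21314 and 21166 genes, 0% were called there. An unadjusted p under 0.05 was reached by 9, 6, 2 and 4 kinesins, for which the counts over all genes are not given. KIF11 in Hs578T had 7.88, 7.60 and 7.78 in PHA-767491 and 5.94, 7.76 and 8.04 in DMSO, and the low DMSO value is that of replicate 1, the library that listed 9967 genes. Without DMSO replicate 1 the counts against PHA-767491 and DMSO were 5 and 6 in co-treatment, all lower. Without DMSO replicate 3, which leaves the 2 DMSO libraries in doubt, 11 kinesins passed in co-treatment (8 higher), 6 in PHA-767491 (6 higher) and 14 in lapatinib (13 higher), each against DMSO. Shares of all genes are not given for these fits without 1 library. The counts therefore cannot be read as particular to kinesins.

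**Figure D2:**
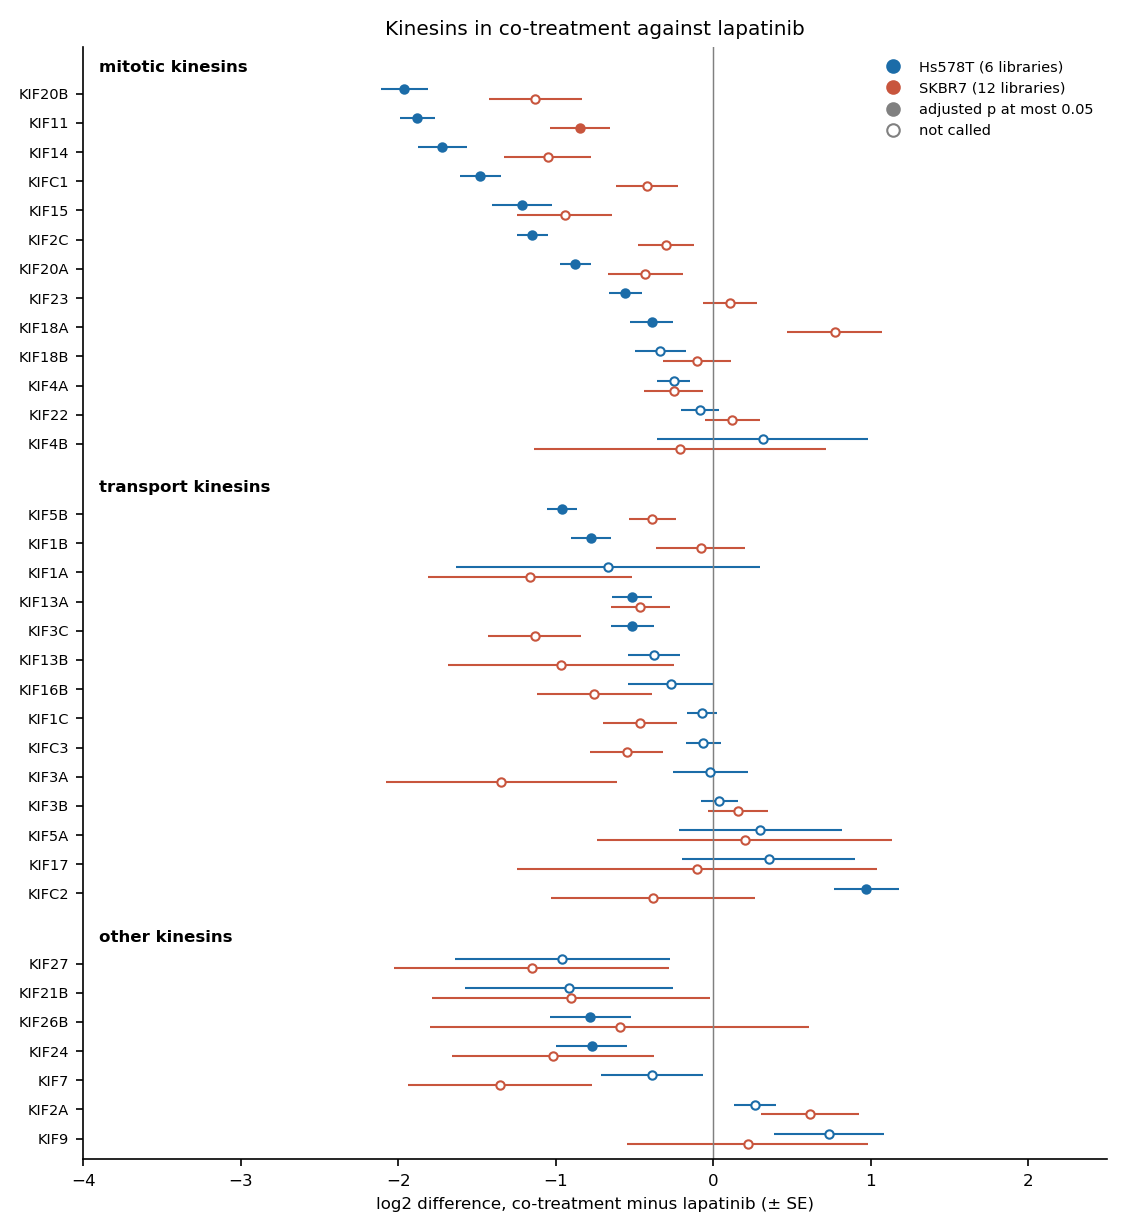
Log2 difference of co-treatment minus lapatinib (horizontal axis) with its standard error for the 34 kinesins tested in both lines, Hs578T in blue (6 libraries) and SKBR7 in red (fit of 12 libraries), ordered within class by the Hs578T value. Filled points passed at an adjusted p of 0.05; in Hs578T 9 mitotic kinesins passed as lower, and in SKBR7 KIF11 passed.

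In the 18 other libraries, ranked anew, more kinesins passed in both lines, as did more genes overall. Leaving out libraries that stand apart from their groups by itself narrows the spread within groups. The adjusted p-values of this setting do not allow for that choice and may be too small. In Hs578T, 11 of 13 mitotic kinesins were lower than in lapatinib and 0 higher, with KIF11 at -1.92, and of all 30 kinesins tested 20 were lower and 2 higher (27.7% and 31.8% of 12200 genes). Against PHA-767491 13 were lower and 1 higher (16.6% and 15%), and against DMSO 15 and 1 (22.1% and 24.1%), although each of these groups then rested on 1 Hs578T library, assumed to vary like the other groups. In SKBR7 13 were lower and 3 higher against lapatinib (19.8% and 17.8%), 12 and 2 against PHA-767491 (19.9% and 18.6%) and 13 and 3 against DMSO (21.4% and 21.1%). In this setting 12 kinesins of SKBR7 were lower against all 3 groups, KIF15, KIF20A and KIF2C among them. The share over all genes is not given for that count. The comparisons within a line share their co-treated libraries.

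The lines were compared in the size of the response, as the co-treatment effect against lapatinib in Hs578T minus that in SKBR7. Of 36 kinesins 0 passed, where 0.0417% of 19168 genes passed. At an unadjusted p under 0.05, for which the count over all genes is not given, there were 6 kinesins. All 6 had a negative value, meaning that the co-treatment difference was lower in Hs578T. KIF18A and KIF23 are among them although they were not lower in SKBR7, with differences there of 0.77 and 0.11, and SKBR7 lapatinib replicate 2, which is in doubt, had the lowest KIF18A value of the line. The values were KIF11 (-1.03), KIFC1 (-1.06), KIF2C (-0.85), KIF18A (-1.16), KIF23 (-0.67) and KIF5B (-0.57), with limma adjusted p-values from 0.668 to 0.971. In the 18 libraries ranked anew, 11 of 30 kinesins passed with a negative value and 0 with a positive one (9.07% and 6.55% of genes were negative and positive). KIFC1 (-1.29, limma adjusted p = 7.24e-05), KIF2C (-0.94, limma adjusted p = 1.91e-04) and KIF11 (-1.02, limma adjusted p = 4.62e-04) led. KIF18A differed in direction, at -0.44 in Hs578T and 0.50 in SKBR7. Its SKBR7 values ranked anew were 7.22 and 7.24 in co-treatment replicates 2 and 3, against 6.998 and 6.46 in lapatinib replicates 1 and 3. As deposited, with the libraries in doubt, its values were 6.62, 7.15 and 7.28 in co-treatment, against 6.90, 5.32 and 6.53 in lapatinib.

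Promoters of the mitotic kinesins share sequence elements that the choice of genes did not use. Many genes of G2 and M carry a cell cycle genes homology region (CHR) near the start, read by the MuvB complexes, together with CCAAT boxes, which are bound by NF-Y. The RefSeq promoter table (GRCh38.p14, 250 bases before to 50 after each start) held 33 of the 41 kinesins and all 13 mitotic ones. The letters TTTGAA or TTCGAA were searched on both strands as the CHR (TTTGAA reads TTCAAA and TTCGAA reads the same on the other strand, and neither overlaps CCAAT), and CCAAT, which reads ATTGG on the other strand, as the CCAAT box. A CHR match was present in 11 of 13 mitotic kinesins (84.6%), 1 of 11 transport kinesins (9.09%) and 1 of 9 other kinesins (11.1%), against 19.5% of 27305 genes. Both elements were present in 10 of 13 mitotic kinesins (76.9%), 1 of 11 transport and 1 of 9 other kinesins, against 7.85% of genes. The exceptions were KIF15 with a CHR match and no CCAAT match, KIF20A with 2 CCAAT matches and no CHR match, and KIF2C with neither. A match is a description of letters and not a binding site. No other letters were searched as the CHR, so that a gene without a match may still carry another form of it.

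The windows below run from 150 bases before to 30 bases after the RefSeq start, 5′ to 3′ on the strand of the gene, with matches to the CHR or the CCAAT box in capitals. KIF11, KIFC1 and KIF23 show the pair in genes that fell in Hs578T, KIF20A and KIF2C show falling genes without a CHR match, and KIF5B is the transport kinesin with both.
KIF11 (chr10:92592980-92593159, plus strand): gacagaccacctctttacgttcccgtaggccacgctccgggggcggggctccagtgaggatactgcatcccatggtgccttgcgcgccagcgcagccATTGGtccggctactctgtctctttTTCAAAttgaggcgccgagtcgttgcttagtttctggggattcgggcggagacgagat
KIFC1 (chr6:33391673-33391852, plus strand): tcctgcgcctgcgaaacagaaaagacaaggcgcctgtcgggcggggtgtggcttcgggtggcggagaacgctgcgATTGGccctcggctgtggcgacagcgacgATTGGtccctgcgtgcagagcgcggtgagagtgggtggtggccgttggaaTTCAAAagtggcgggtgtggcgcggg
KIF23 (chr15:69414199-69414378, plus strand): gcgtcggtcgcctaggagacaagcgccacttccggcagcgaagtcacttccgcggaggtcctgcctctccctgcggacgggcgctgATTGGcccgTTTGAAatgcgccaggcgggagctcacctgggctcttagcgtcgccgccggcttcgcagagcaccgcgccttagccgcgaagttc
KIF20A (chr5:138178962-138179141, plus strand): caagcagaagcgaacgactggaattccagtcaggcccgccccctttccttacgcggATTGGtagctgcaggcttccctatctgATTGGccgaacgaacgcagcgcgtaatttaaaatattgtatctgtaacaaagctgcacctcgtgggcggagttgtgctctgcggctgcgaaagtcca
KIF2C (chr1:44739687-44739866, plus strand): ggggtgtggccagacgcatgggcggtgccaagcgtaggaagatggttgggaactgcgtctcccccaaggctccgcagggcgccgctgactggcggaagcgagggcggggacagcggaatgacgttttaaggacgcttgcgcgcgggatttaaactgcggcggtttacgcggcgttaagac
KIF5B (chr10:32056396-32056575, minus strand): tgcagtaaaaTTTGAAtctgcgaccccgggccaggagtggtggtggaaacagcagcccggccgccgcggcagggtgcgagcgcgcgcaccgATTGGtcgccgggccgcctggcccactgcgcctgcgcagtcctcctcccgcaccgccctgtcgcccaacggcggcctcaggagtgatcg

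In KIF11 the CCAAT box began at position -53 and the CHR match at position -28 from the start, and in KIFC1 the matches were at positions -75, -46 and 5. KIF4A (CHR match at -34), KIF22 (at -27) and KIF18B (at 3) carry both elements and did not pass in Hs578T, whereas KIF2C and KIF20A lack a CHR match and were lower. In the 18 libraries ranked anew KIF4A (-0.29, limma adjusted p = 0.00332) and KIF18B (-0.41, limma adjusted p = 0.00606) were lower too, and KIF22 did not pass. The start of KIF5B has its CHR match at -140. KIF22 has 2 start windows with a CHR match in each, at -27 in 1 and at -244 in the other. Whether these are 1 site seen from 2 starts was not tested.

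**Figure D3:**
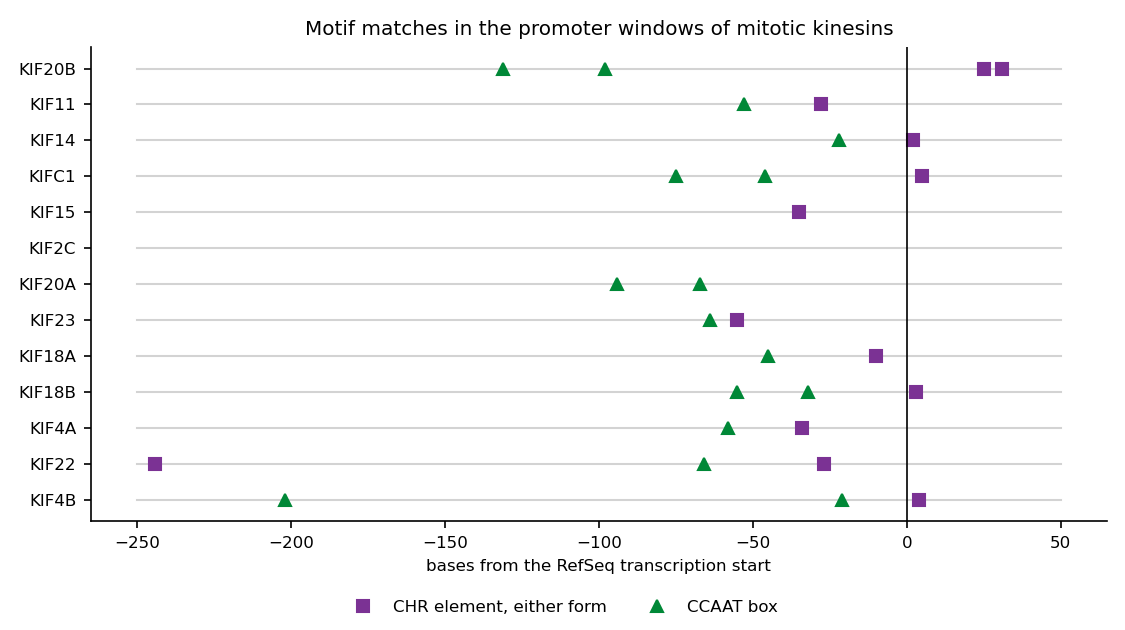
Positions of CHR matches (purple squares) and CCAAT boxes (green triangles) in the RefSeq promoter windows of the 13 mitotic kinesins, in bases from the transcription start (horizontal axis), ordered from the largest fall in Hs578T co-treatment at the top. KIF2C has no match, and the CHR matches of KIF11, KIF15, KIF23 and KIF4A lie between -55 and -28 bases from the start.

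Transcript length was set beside the change as a description. The mRNAs of KIF14, KIF20B and KIF11 are 7291, 6441 and 5016 bases long in the GENCODE canonical transcript, and those of KIF22, KIFC1 and KIF2C 2081, 2391 and 2862 bases. Over the 13 mitotic kinesins Spearman's correlation of the co-treatment difference against lapatinib with mRNA length was -0.451 in Hs578T and -0.632 in SKBR7. Over all genes tested that have a length it was -0.205 and -0.0978. Over 7573 genes of mean log2 value at least 4, listed in at least 23 libraries, it was -0.3 and -0.125. Over all kinesins tested it was -0.203 and -0.308. With the number of exons in place of length, the 13 mitotic kinesins gave -0.522 and -0.582. KIFC1 and KIF2C were short and fell in Hs578T, and KIF4A, at 4388 bases, did not pass. The part of length in the differences was not tested.

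Among the transport kinesins, 4 of 14 were lower and 1 higher in Hs578T co-treatment than in lapatinib, where 11% of all genes tested were lower and 18.3% higher. Their median difference was -0.17, beside 0.18 over all genes. In SKBR7, 0 of 15 passed against lapatinib, where 0.57% of genes were lower and 0.164% higher. With all libraries, their SKBR7 median was -0.47 with lapatinib as the comparator, -0.55 with PHA-767491 and -0.74 with DMSO, each lower than that of the mitotic kinesins. Ranked anew without the 6 libraries in doubt, the medians of 12 transport kinesins were -0.23, -0.09 and -0.32, against -0.24, -0.21 and -0.29 for the mitotic ones. The transport median was then the lower one only against DMSO, and the difference between the classes was not tested. Of those 12, 5 were lower and 2 higher against lapatinib (19.8% and 17.8% of 12200 genes). KIF5B (ENSG00000170759.10, chromosome 10, 32009010 to 32056431) had 7.77, 7.62 and 7.82 in Hs578T co-treatment, against 8.55, 8.76 and 8.78 in lapatinib (difference -0.96, standard error 0.09, limma adjusted p = 1.38e-22). KIF1B (chromosome 1, 10210805 to 10381603), a carrier of mitochondria and synaptic vesicle precursors, had 5.95, 5.81 and 5.86 in co-treatment, against 6.33, 6.86 and 6.75 in lapatinib (difference -0.78, standard error 0.12, limma adjusted p = 1.04e-08). In both genes the co-treated libraries lay below all lapatinib libraries. In SKBR7, KIF1B overlapped at 4.98, 5.19 and 5.49 in co-treatment, against 5.15, 5.18 and 5.57 in lapatinib, with a difference of -0.08.

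KIF13A (chromosome 6, 17759183 to 17987623), which carries endosomal and Golgi-derived cargo, had 5.82, 5.84 and 5.75 in Hs578T co-treatment, against 6.24, 6.32 and 6.41 in lapatinib (difference -0.52, standard error 0.13, limma adjusted p = 4.33e-04). KIF3C (chromosome 2, 25926596 to 25982749), a subunit of kinesin-2, had 5.52, 5.45 and 5.54 in co-treatment, against 5.92, 6.01 and 6.13 in lapatinib (difference -0.51, standard error 0.14, limma adjusted p = 0.00120). The fall of KIF3C was -1.13 in SKBR7, without passing there (limma adjusted p = 0.0847), from 3.98, 4.57 and 5.02 in co-treatment, against 5.47, 5.69 and 5.82 in lapatinib. KIFC2 (ENSG00000167702.11), a minus-end motor known mainly from neurons, was the 1 kinesin called higher, with 4.72, 4.93 and 4.67 in Hs578T co-treatment, against 3.64, 3.47 and 4.29 in lapatinib (difference 0.97, standard error 0.21, limma adjusted p = 2.72e-05). In SKBR7 it had 0.96, 3.23 and 3.77 in co-treatment, against 2.16, 3.47 and 3.49 in lapatinib, and its lowest value came from the co-treated library in doubt. Ranked anew without that library and the other 5, KIFC2 was higher in both lines (0.84 in Hs578T and 0.60 in SKBR7, limma adjusted p = 1.07e-04 and 0.0178).

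KIF1C and KIF3B did not pass against lapatinib in either line with all libraries. KIF1C, a carrier of Golgi vesicles and mRNA, had 8.21, 8.18 and 8.05 in Hs578T co-treatment, against 8.18, 8.21 and 8.29 in lapatinib (difference -0.07, limma adjusted p = 0.622). KIF3B, the partner of KIF3A in heterotrimeric kinesin-2, had 6.61, 6.48 and 6.60 in co-treatment, against 6.33, 6.53 and 6.72 in lapatinib (difference 0.04, limma adjusted p = 0.865). In SKBR7, KIF3B had 6.80, 7.11 and 7.28 in co-treatment, against 6.81, 6.98 and 6.92 in lapatinib, and KIF1C had 7.49, 7.83 and 7.90, against 7.66, 8.99 and 7.98. The high lapatinib value of KIF1C is that of replicate 2. In the 18 libraries ranked anew KIF3B was higher in SKBR7 co-treatment against lapatinib (0.32, limma adjusted p = 0.00677), PHA-767491 (0.20, limma adjusted p = 0.0444) and DMSO (0.31, limma adjusted p = 0.00418), and KIF1C did not pass in these comparisons.

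**Figure D4:**
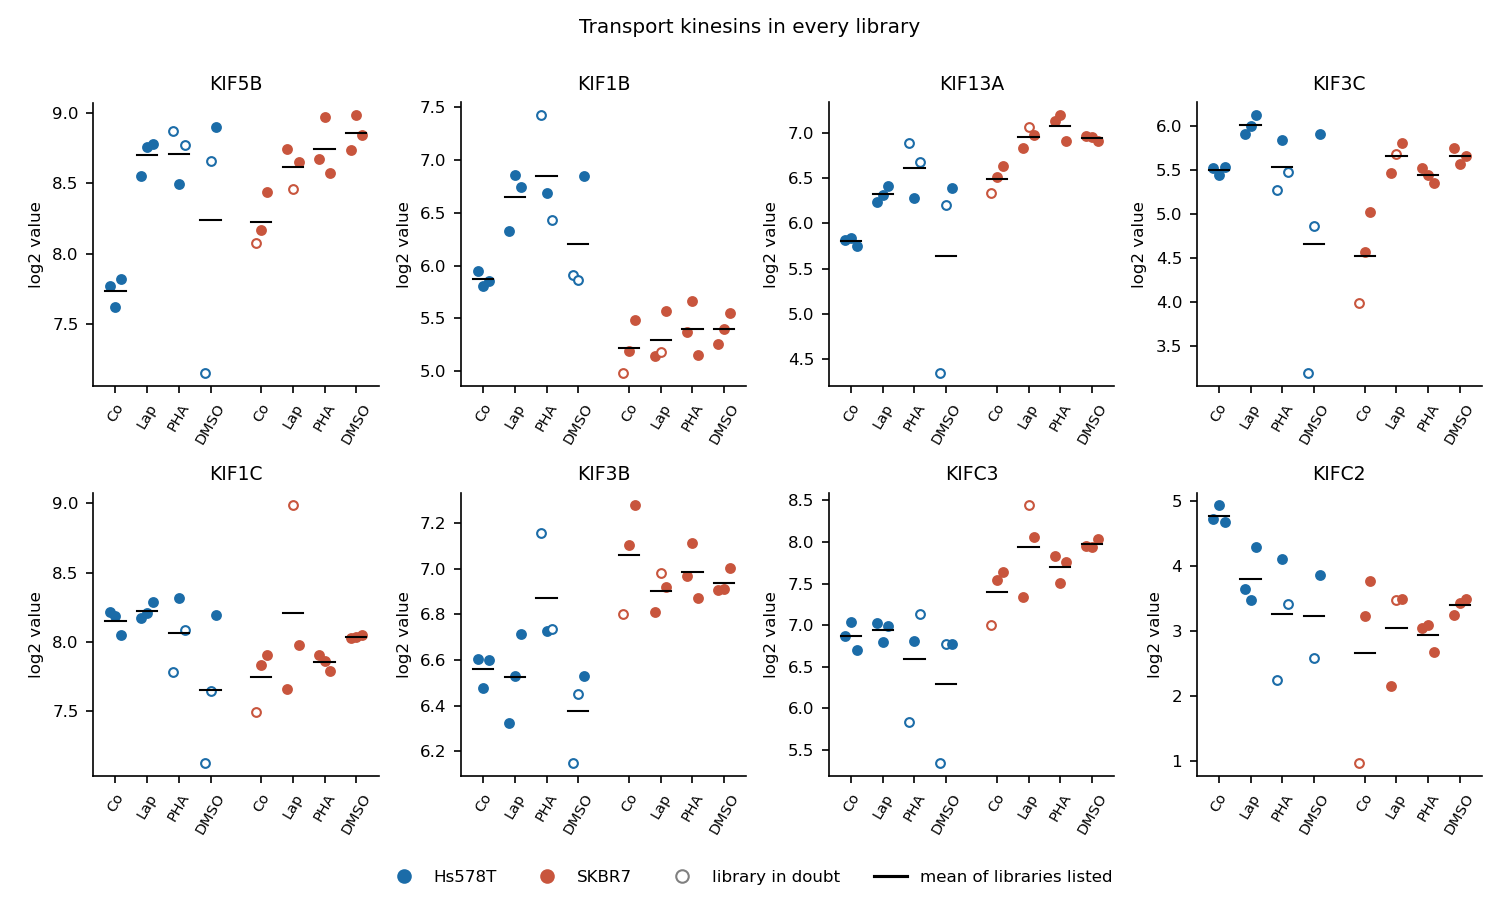
Log2 value (vertical axes, a scale of its own in each panel) of 8 transport kinesins in each library, by group and line as in the plot of mitotic kinesins, with open points for the 6 libraries in doubt and bars for group means. KIF5B lies lower in co-treatment than in lapatinib in both lines, KIFC2 lies higher in Hs578T, and KIF1C and KIF3B overlap.

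Of the other kinesins, 2 of 7 tested in Hs578T were lower in co-treatment than in lapatinib and 0 higher, where 11% of all genes tested were lower and 18.3% higher. KIF24, a centriolar kinesin that restrains cilium formation, had 3.79, 3.85 and 3.31 in co-treatment, against 4.17, 4.34 and 4.76 in lapatinib (difference -0.77, standard error 0.22, limma adjusted p = 0.00325). KIF26B had 3.54, 3.35 and 2.98, against 3.88, 4.07 and 4.26 (difference -0.78, standard error 0.26, limma adjusted p = 0.00983). Both calls were lost without co-treatment replicate 3 (adjusted p = 0.0627 and 0.0890). The 5 others tested, KIF27, KIF21B, KIF7, KIF2A and KIF9, did not pass, with differences from -0.96 to 0.73.

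Under lapatinib, 5 of 37 kinesins were higher and 6 lower in Hs578T than in SKBR7, where 13.1% of 21122 genes were higher and 8.88% lower, so that the share of kinesins called higher was near that of all genes. KIF21A (ENSG00000139116.17, chromosome 12, 39293228 to 39443390), a motor that halts microtubule growth at the cell cortex, was listed in 1 Hs578T lapatinib library, at -3.41, against 5.84, 4.98 and 5.85 in SKBR7 lapatinib. KIF1A, the neuronal carrier of synaptic vesicle precursors, had -0.95 and -3.41 in the 2 Hs578T lapatinib libraries that listed it, against 3.81, 5.20 and 5.03 in SKBR7. KIF5C, the neuronal heavy chain of conventional kinesin, was listed in 1 Hs578T lapatinib library at -2.94, against 1.68, 0.10 and 2.20 in SKBR7. The fitted differences of these genes (-8.97, -6.86 and -4.27, limma adjusted p = 3.37e-09, 1.57e-05 and 0.0350) rest on the libraries that list them, with no value filled in for the others, and that of KIF5C was lost without Hs578T lapatinib replicate 1 or 3, SKBR7 co-treatment replicate 2 or SKBR7 lapatinib replicate 1 or 3.

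In the other direction, KIF26B was listed at 3.88, 4.07 and 4.26 in Hs578T lapatinib, against -1.19 in 1 SKBR7 lapatinib library (difference 5.26, limma adjusted p = 2.40e-04). KIF13B, a carrier of membrane proteins, had 5.10, 5.25 and 5.33 in Hs578T lapatinib, against 2.10, 2.07 and 3.37 in SKBR7 (difference 2.72, limma adjusted p = 6.76e-04). KIF17, a motor of cilia and dendrites, had 1.18, 1.23 and 1.63 in Hs578T lapatinib, against -1.45, -2.96 and 1.57 in SKBR7, and did not pass (2.29, limma adjusted p = 0.153). KIF1B was higher in Hs578T as well (1.35, limma adjusted p = 6.96e-04). Of the mitotic kinesins KIF2C and KIF20A were higher in Hs578T (1.22 and 0.95, limma adjusted p = 1.29e-05 and 0.00336), and KIF18B and KIF22 lower (-1.22 and -0.65, limma adjusted p = 0.00156 and 0.0311). KIFC3 was lower as well (-1.01, limma adjusted p = 0.00228), and the call of KIF22 was lost in 7 of the 12 fits that left out 1 library. KIF11, KIF23, KIF14 and KIF20B did not pass between the lines, with differences of 0.39, 0.01, 0.15 and 0.31.

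Kinesins that mark SKBR7 also appeared in the Hs578T libraries that listed many genes of the other line. KIF21A had 4.15 in Hs578T DMSO replicate 2 and 4.39 in Hs578T PHA-767491 replicate 3, and was listed in 2 of the other 10 Hs578T libraries, at -3.31 and -3.41. KIF1A had 2.96 and 3.30 in those libraries, against at most -0.95 in the other Hs578T libraries that listed it. KIF26A, chosen here after its values were seen, had -1.06 and 2.28, against -3.31 in the 1 other library that listed it. Contrasts of Hs578T with DMSO or PHA-767491 for these genes are therefore not described.

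**Figure D5:**
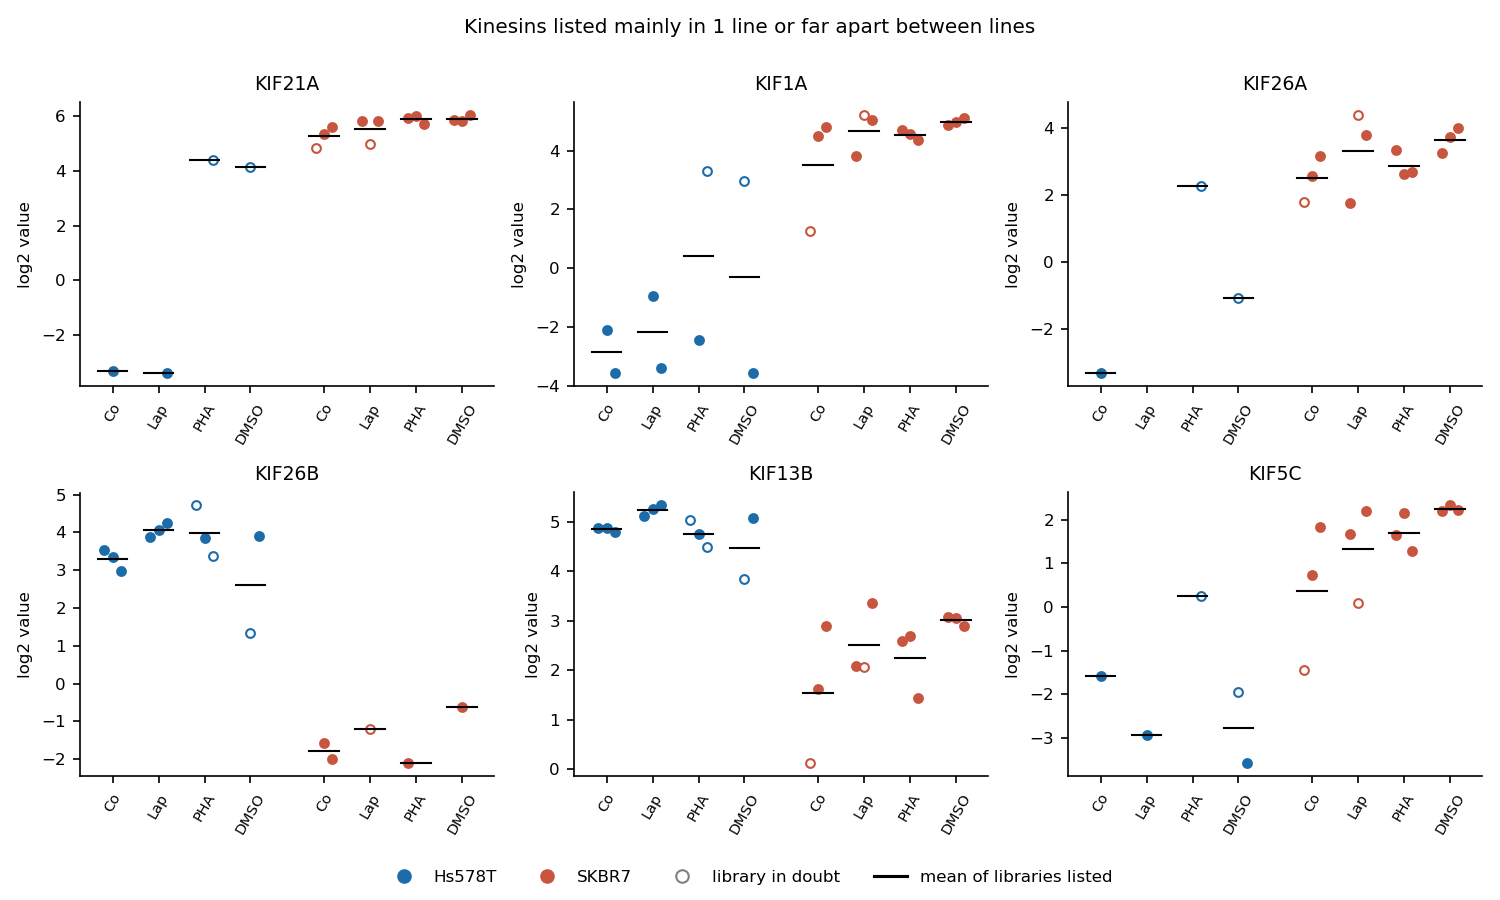
Log2 value (vertical axes, a scale of its own in each panel) of 6 kinesins listed mainly in 1 line or far apart between the lines, by group and line, with open points for the 6 libraries in doubt; a library without a point does not list the gene. KIF21A lies at 4.84 to 6.04 in SKBR7 and reaches 4.15 and 4.39 in Hs578T only in the DMSO and PHA-767491 libraries in doubt.

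Genes that work with the mitotic kinesins were counted in the same way in Hs578T co-treatment against lapatinib, where 11% of all genes tested were lower and 18.3% higher. Of 16 spindle and midzone partners 12 were lower than in lapatinib and 2 higher, with a median difference of -0.57. AURKB, the kinase that KIF20A brings to the midzone, had a difference of -1.24 (standard error 0.13), AURKA, a kinase of spindle poles, by -1.19 (standard error 0.11), and ECT2, the exchange factor that centralspindlin activates, by -1.01 (standard error 0.11), with limma adjusted p-values of 4.93e-20, 1.45e-26 and 3.64e-18. Of 8 genes of the mitotic kinase core 6 were lower, led by the phosphatase CDC25B (-1.55) and the cyclins CCNA2 (-0.85) and CCNB2 (-0.84), and 2 were higher. The higher ones, named after their values were seen, were the inhibitory kinases WEE1 (0.62) and PKMYT1 (0.48). Of 10 regulators of the MuvB, DREAM and FOXM1 class RBL1 was lower (-0.53), FOXM1 was higher (0.26) and 8 did not pass, which is near the shares of all genes. In SKBR7, with all 12 libraries, 0 of these 34 genes passed against lapatinib, and against DMSO CKAP5 (-0.77), a microtubule polymerase, SPAG5 (-0.65) and CDC25B (-0.91) were lower. Ranked anew without the 6 libraries in doubt, 7 of 16 spindle and midzone partners were lower against lapatinib and 3 higher. Of the mitotic kinase core 4 of 8 were then lower and 1 higher, and of the regulators 1 of 10 was lower and 0 higher. Of 12200 genes 19.8% were lower and 17.8% higher there. Among 4 proliferation markers TOP2A (-0.82) and PCNA (-0.73) were lower in Hs578T, while MKI67 had 7.62, 7.64 and 7.78 in co-treatment, against 7.36, 8.31 and 8.06 in lapatinib, and overlapped. MCM2 overlapped as well, with 7.67, 7.70 and 7.64 in co-treatment, against 7.84, 7.60 and 7.83 in lapatinib.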

How the data were processed

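RNA was sequenced from 24 libraries, 3 for each of 4 treatments in Hs578T and in SKBR7. Per the labels and methods, libraries were stranded mRNA preparations, reads were assigned to Ensembl genes on GRCh38 with featureCounts, and the aligner is given differently by the sources used here. The deposited values are log2 expression, which the authors normalised by TMM and quantiles, so that library depth cannot be read from them. A deposited table of the authors' group averages and differences was not used.

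Kinesins and gene lists were chosen with earlier results of these data known. Kinesins named with values were those called in Hs578T co-treatment against lapatinib or in SKBR7, 9 class representatives and the 6 with the largest differences between lines, and up to 3 called genes were named from each partner list. Differences were fitted with limma 3.58.1 in R 4.3.3 with a variance trend over all genes listed in at least 3 libraries of the fit, with no imputation, and p-values were adjusted by Benjamini-Hochberg over all genes (threshold 0.05). Hs578T co-treatment against lapatinib used those 6 libraries, other comparisons within a line its 12 libraries, and the comparisons between lines the 12 co-treated and lapatinib libraries. The code was tested on simulated data. Alternatives were other filters, a replicate block, no variance trend, median centring, other sample sets, leaving out each library, and using only 18 libraries, ranked anew or, chosen after seeing the data, as deposited.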

Additional observations from a re-analysis of the deposited data

How the results depend on the processing

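The counts of kinesins called depended on the processing, and the cause was not tested. Shares over all genes are not given for the alternatives below, except where stated above. Counts are given for SKBR7 co-treatment against lapatinib, PHA-767491 and DMSO in turn unless named. With genes listed in every library of the fit they were 4, 4 and 7, with libraries centred on their medians 3, 1 and 1 (and 3 for Hs578T co-treatment against DMSO), and without the variance trend 0, 0 and 0, with 8 in Hs578T co-treatment against lapatinib and 7 between the lines under lapatinib. From only the 6 libraries compared, they were 0 against lapatinib and 4 against PHA-767491, with 1 in SKBR7 PHA-767491 against DMSO and 1 in Hs578T co-treatment against PHA-767491. With all 12 Hs578T libraries the count against lapatinib was 0. In the 18 libraries ranked anew they were 16, 14 and 16, with 1 in SKBR7 PHA-767491 against DMSO, 14 and 16 in Hs578T co-treatment against PHA-767491 and DMSO, 20 between the lines under lapatinib and 11 for the difference between lines. With the deposited values of these 18 libraries, an alternative chosen after seeing the data, they were 8, 8 and 11, with 9 and 12 in Hs578T, 19 between the lines and 7 for the difference.

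Whether replicate numbers pair the samples was not settled. Of 18 same-number pairs in each line, 5 correlated above 0.1, with values from -0.45 to 0.37 in Hs578T and from -0.38 to 0.59 in SKBR7. That count cannot show that pairing was absent, because pairs of different number were not counted beside it. With the replicate block the count in SKBR7 co-treatment against lapatinib was 0, and of 44 named results, some of them not called to begin with, 40 stayed on their side of the threshold and 4 calls were lost (KIF11 in that comparison, KIF18A and KIF26B in Hs578T co-treatment against lapatinib, and KIF5C between the lines).

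Leaving out 1 library at a time gave 0 to 5, 0 to 6 and 0 to 9 kinesins in SKBR7 co-treatment, 13 to 18 in Hs578T co-treatment against lapatinib, 0 to 5 against PHA-767491 and 0 to 11 against DMSO, 0 to 6 in Hs578T PHA-767491 and 0 to 14 in Hs578T lapatinib against DMSO, 8 to 14 between the lines under lapatinib, and 0 for the difference between lines and for either drug alone in SKBR7. Uncalled differences near 0 changed sign. KIF3B in Hs578T co-treatment against lapatinib was -0.11 when centred, -0.011 ranked anew and -0.063 to 0.13 with 1 library left out, lowest without lapatinib replicate 1. In SKBR7, KIF1B was 0.083 when centred and -0.21 to 0.054 with 1 library left out, highest without lapatinib replicate 3. KIF1C was 0.045 ranked anew and 0.049 with the deposited values of the 18 libraries, and KIF23 was -0.026 to 0.20 with 1 library left out, lowest without lapatinib replicate 2. Depth could not be read from the deposited values, so the counting error of low genes is unknown.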

Other observations

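The retrograde motor dynein and the adaptors of transport kinesins moved in both directions in Hs578T co-treatment against lapatinib. In that comparison 11% of all genes tested were lower and 18.3% higher. Of 20 genes of dynein, dynactin and their regulators 8 were lower and 5 higher, with a median log2 difference of -0.07, beside 0.18 over all genes. The dynein regulators PAFAH1B1 (-1.35) and NDEL1 (-1.10) and the light chain DYNLL1 (-1.09) were among the lower ones. Of 14 kinesin light chains and cargo adaptors 3 were lower and 4 higher, with a median of 0.07. The adaptor MAPK8IP3 (1.39) and the light chain KLC4 (0.79) were higher, and TRAK2 (-0.87), which links mitochondria to kinesin, was lower.

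In SKBR7 co-treatment against lapatinib, with all 12 libraries, 0 of 21 dynein and dynactin genes and 0 of 14 light chains and adaptors passed by limma. Ranked anew without the 6 libraries in doubt, 6 of 19 dynein and dynactin genes were lower and 2 higher. Of 11 light chains and adaptors 2 were then lower and 0 higher, where 19.8% of 12200 genes were lower and 17.8% higher. With all 12 libraries, DYNLL1 (-1.11, limma adjusted p = 0.00984), PAFAH1B1 (-0.94, adjusted p = 0.0125) and TRAK2 (-1.33, adjusted p = 0.0468) were lower against DMSO.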
